A study of Mus musculus with 2 samples.

Results

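The genes described here are 10 transcripts of the ATF4 stress response and of serine and one-carbon metabolism (Atf4, Ddit3, Asns, Trib3, Chac1, Psat1, Phgdh, Shmt2, Mthfd2 and Mthfd1l). They were chosen by name, with earlier results of these data known, and all 10 were found among the 49492 genes of the deposited count table. Bulk RNA-seq was carried out on colonies/organoids that FACS-sorted basal cells from the mammary glands of adult female wild-type mice formed in 3D matrix gel over 10 days. There was 1 control library, grown without added cytokine, and 1 library grown with TNF-α at 10 ng/mL. The cells of both were primary and were fed a medium with EGF and ITS, so that both libraries share these supplements. With 1 library per condition no difference below has a replicate check, and a difference between conditions cannot be told apart from a difference between single cultures.

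ATF4 is the transcription factor of the integrated stress response. Kinases that sense unfolded protein in the endoplasmic reticulum (ER), lack of amino acids, double-stranded RNA or lack of heme phosphorylate the initiation factor eIF2α, which slows most translation while the Atf4 message is translated more. ATF4 protein then switches on genes for amino acid synthesis and import. Among them are the enzymes that build serine from a glycolytic intermediate and pass its carbon through the mitochondrial folate pathway, which delivers formate for purine and thymidylate synthesis. ATF4 is thus regulated in large part at translation, which transcript amounts do not measure.

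All 10 transcripts had more scaled counts with TNF-α than without, but most by little. A log2 ratio above 0 was seen in 50.6% of the 20771 genes compared, which are those with a sum of at least 10 counts, and in 50.0% of the 13609 well counted genes (a sum of at least 200 counts). The median log2 ratio of the 10 genes was 0.22, and that of all genes compared was 0.0038. The ratios of 8 of the 10 lay between 0.11 for Asns and 0.29 for Shmt2. Mthfd1l and Psat1 stood highest, at 0.86 and 0.62. None of the 10 was more than 2-fold higher or lower, against 8.56% and 6.62% of all genes compared and 4.01% and 2.87% of the well counted ones. More than 1.5-fold higher were 2 of the 10, against 15.5% of all genes compared and 9.13% of the well counted ones. None was more than 1.5-fold lower, against 13.7% and 7.48%. The 2 of 10 is thus near the background share. These ratios are of counts scaled to library size by edgeR's TMM method (CPM, the usual per-million scale), with a prior count of 2. The 95% intervals given below are exact Clopper-Pearson intervals, made from the fraction of a gene's counts that came with TNF-α. They cover counting error at most, and the variation among cultures is not in them. No molecular identifiers are described that would separate PCR copies. Such copies, or read pairs counted at both ends, would make the intervals too narrow even for counting error.

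The libraries held 44462275 counts (control) and 53487087 counts (TNF-α). Basal keratin genes Krt5 and Krt14 were abundant in both libraries, with log2 ratios of 0.16 and -0.08, and luminal Krt8 was at 1213 and 1132 CPM, so the colonies held transcripts of both epithelial layers. The 7 luminal markers listed had a median log2 ratio of -0.63 and summed to 4029 CPM in the control and 3374 CPM with TNF-α, with Krt19, Kit and Prlr lower and Epcam higher. The 7 basal markers had a median of -0.08 and summed to 9571 and 9363 CPM, most of it from the keratins. Within them the contractile and hormone-response genes Oxtr, Cnn1 and Acta2 were lower with TNF-α, at -1.19, -0.74 and -0.20. The 6 fibroblast markers summed to 499 and 486 CPM, the 9 leukocyte markers to 14.5 and 20.7 CPM, and the 4 endothelial markers to 7.70 and 7.20 CPM. Of the fibroblast markers 4 were higher and 2 lower with TNF-α, from Dcn at a log2 ratio of 1.39 to Col3a1 at -0.66. Among the leukocyte markers the pan-leukocyte gene Ptprc was at 0.58 and 0.71 CPM, Cd3e had no count in either library, and Cd14 accounted for 6.19 and 14.2 CPM of the sums. The part of these shifts in luminal and basal markers in the ratios of the 10 genes was not tested. In bulk RNA fewer cells of a type and less RNA per cell cannot be told apart.

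The promoters of the ATF4 targets are shown because the letters that ATF4 and its C/EBP partners are known to bind can be read in some of them. The windows searched run from 250 bases before to 50 bases after each gene's start (RefSeq, build GRCm38.p6), and each of the 10 genes had at least 1 window. The letters searched on both strands were TGATGNAA and TGNTGCAA, forms that overlap where C stands at the N of the first. They were chosen after the windows had been read. Asns, Chac1, Psat1 and Trib3 held a match and the other 6 genes did not, while 6.2% of the 32851 windows in the RefSeq table held a match. A match describes the letters only. The sequences below are the 250 bases before the start, 5′ to 3′ on the strand of the gene, with each match in capitals.
Asns (chr6:7693210-7693459, minus strand): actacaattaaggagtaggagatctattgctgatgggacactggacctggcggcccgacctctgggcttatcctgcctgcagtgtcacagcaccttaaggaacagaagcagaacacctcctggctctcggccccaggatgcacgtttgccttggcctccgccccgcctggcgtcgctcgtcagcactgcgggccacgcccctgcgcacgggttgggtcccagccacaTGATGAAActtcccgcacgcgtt
Chac1 (chr2:119350992-119351241, plus strand): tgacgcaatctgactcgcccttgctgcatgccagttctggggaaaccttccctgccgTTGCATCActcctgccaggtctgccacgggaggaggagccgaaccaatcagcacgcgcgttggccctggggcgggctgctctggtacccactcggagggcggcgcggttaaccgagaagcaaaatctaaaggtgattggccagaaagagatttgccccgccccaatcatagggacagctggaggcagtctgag
Trib3 (chr2:152344061-152344310, minus strand): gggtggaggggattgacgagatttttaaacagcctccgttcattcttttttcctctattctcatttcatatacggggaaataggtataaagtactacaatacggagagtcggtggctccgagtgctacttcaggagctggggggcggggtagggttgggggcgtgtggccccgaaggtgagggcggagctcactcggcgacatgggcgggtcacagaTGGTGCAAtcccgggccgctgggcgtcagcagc
Psat1 (chr19:15925060-15925309, minus strand): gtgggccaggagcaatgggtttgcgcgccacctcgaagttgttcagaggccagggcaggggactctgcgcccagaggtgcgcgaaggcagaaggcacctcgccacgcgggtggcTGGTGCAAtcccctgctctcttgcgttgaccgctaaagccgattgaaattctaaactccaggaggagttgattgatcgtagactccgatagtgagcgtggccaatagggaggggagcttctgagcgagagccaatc
Mthfd1l (chr10:3972825-3973074, plus strand): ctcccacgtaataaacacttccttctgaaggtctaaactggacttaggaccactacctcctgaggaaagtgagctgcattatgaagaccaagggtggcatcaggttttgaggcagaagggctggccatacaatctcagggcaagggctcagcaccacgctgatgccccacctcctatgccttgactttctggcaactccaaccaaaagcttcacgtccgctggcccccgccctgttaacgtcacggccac
The Asns match begins 23 bases before the start, the Trib3 match 33, the Psat1 match 136 and the Chac1 match, which reads on the opposite strand, 193. Trib3 and Psat1 share the same 8 letters, and a second Trib3 match lies just past the start, outside the bases printed. Psat1 has a second annotated start without a match. Mthfd1l is shown because it had the highest ratio, and its window held no match. The 4 genes with a match had log2 ratios of 0.11, 0.20, 0.19 and 0.62, in the order Asns, Chac1, Trib3 and Psat1.

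Levels per length, given as RPKM (CPM per kilobase of exon, with the same scaling), spanned a wide range among the 10 genes. The exon lengths are those deposited for each gene, not those of the transcripts expressed. Orders and quotients between genes depend on them, which the counting intervals do not cover. In the control library Atf4 was highest at 82.3 RPKM, above 96.9% of the genes compared. Shmt2 followed at 29.2, Phgdh at 19.5, Ddit3 at 18.7, Asns at 7.08, Mthfd2 at 5.68, Mthfd1l at 4.26, Trib3 at 3.29, Psat1 at 1.74 and Chac1 at 0.58 RPKM. Phgdh and Ddit3 were the neighbours in this order whose levels did not differ beyond counting error, with a quotient of 1.04 (95% interval 0.97 to 1.11). In the TNF-α library the order was the same except that Mthfd1l, at 7.72 RPKM, stood beside Asns at 7.67 RPKM. The quotient of these 2 levels was 1.01 (95% interval 0.93 to 1.09). Mthfd1l thus went from 0.75 times the level of Mthfd2 in the control library to 1.16 times with TNF-α.

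**Figure D1:**
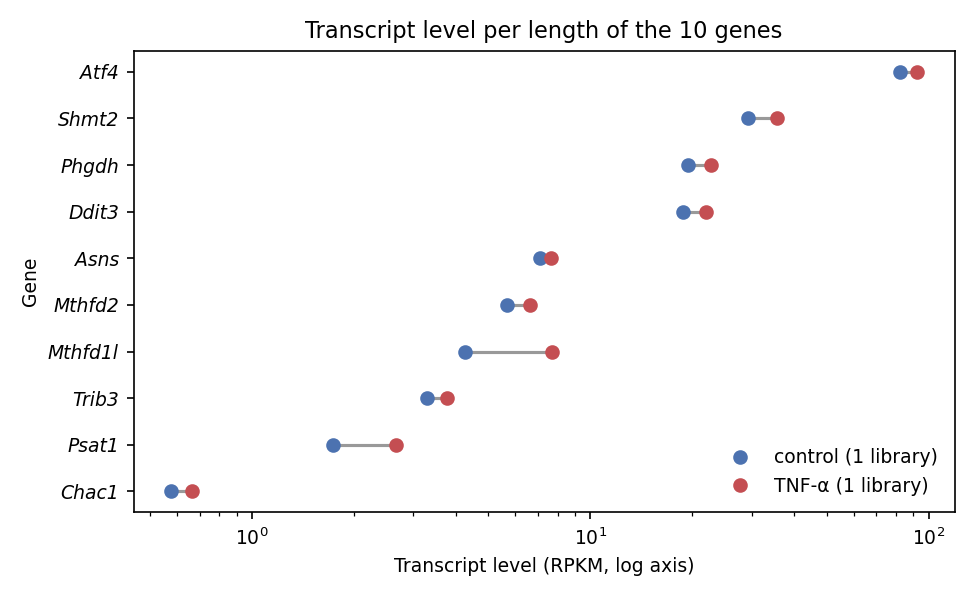
Transcript level per length (RPKM, log axis) of the 10 genes in the control library and the TNF-α library, with 1 point per library and a line joining both. Levels run from 0.58 RPKM for Chac1 to 92.6 RPKM for Atf4, and the longest lines are those of Mthfd1l and Psat1.

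Among the stress factors, Atf4 itself (chromosome 15, 80255184 to 80257540, GRCm38) had 6323 counts in the control library and 8522 with TNF-α. That is 142 and 160 CPM, a log2 ratio of 0.17 (95% interval 0.12 to 0.22). Ddit3, which encodes CHOP, the factor that links prolonged ER stress to cell death, lies on chromosome 10 (127290774 to 127296288). Its counts were 1431 and 2013, or 32.1 and 37.7 CPM, a log2 ratio of 0.23 (95% interval 0.13 to 0.33). The ratios of Ddit3 and Atf4 differed by 0.06 (95% interval -0.05 to 0.17), which is within counting error. Ddit3 shares 68 exonic bases, 3.97% of its exons, with Mars on the opposite strand, and the sources used here do not state whether counting used the strand. Trib3 encodes a pseudokinase that binds ATF4 and restrains it. It lies on chromosome 2 (152337422 to 152344032) and had 312 and 427 counts, 7.0 and 8.0 CPM, a log2 ratio of 0.19 (95% interval -0.02 to 0.41). Chac1 encodes an enzyme that breaks down glutathione and is a sensitive reporter of ATF4 and CHOP activity. On chromosome 2 (119351229 to 119354381) it had 42 and 58 counts, 0.94 and 1.09 CPM. Its log2 ratio of 0.20 had the widest interval of the 10, from -0.39 to 0.81, so this depth did not settle the direction of the difference. For these 4 genes the TNF-α value was the higher of the 2, and for Trib3 and Chac1 the interval included 0.

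Asns encodes asparagine synthetase, a textbook ATF4 target that makes asparagine from aspartate and glutamine. On chromosome 6 (7675169 to 7693254) it had 863 counts in the control and 1119 with TNF-α, or 19.4 and 20.97 CPM. Its log2 ratio, 0.11 (95% interval -0.01 to 0.24), was the lowest of the 10. The libraries did not differ in Asns beyond counting error.

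Serine is built in 3 steps, catalyzed by the products of Phgdh, Psat1 and Psph. Phgdh, the dehydrogenase of the first step, lies on chromosome 3 (98313170 to 98339990). It had 2155 and 3011 counts, 48.4 and 56.4 CPM, a log2 ratio of 0.22 (95% interval 0.14 to 0.30). Its pseudogene Phgdh-ps1 had 2 and 4 counts. Psat1, the aminotransferase of the second step, lies on chromosome 19 (15904678 to 15947337). It had 329 and 606 counts, 7.38 and 11.4 CPM, a log2 ratio of 0.62 (95% interval 0.43 to 0.82), or 1.54-fold. The Psat1 ratio stood above 91.5% of the genes with at least 200 counts. Psph, the phosphatase of the last step and not one of the 10, had 976 and 1592 counts and a log2 ratio of 0.45 (95% interval 0.33 to 0.56). Between these 2 libraries the ratio of Psat1 exceeded that of Phgdh by 0.40 (95% interval 0.19 to 0.61) and that of Psph by 0.17 (95% interval -0.05 to 0.40). The transcripts of the last 2 steps thus stood further above the control than that of the first, while Psat1 remained at 0.12 times the level per length of Phgdh in the TNF-α library.

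In mitochondria, SHMT2 takes a carbon from serine, MTHFD2 oxidizes the folate that carries it, and MTHFD1L releases it as formate. Shmt2 (chromosome 10, 127517123 to 127522444) had 2996 and 4394 counts, 67.2 and 82.3 CPM, a log2 ratio of 0.29 (95% interval 0.23 to 0.36). Its 3′ end shares 30 exonic bases with Ndufa4l2 on the opposite strand, a gene with 4 counts in the control and 388 with TNF-α. These bases are 1.30% of the Shmt2 exons, and whether reads of Ndufa4l2 entered the Shmt2 count was not tested. Mthfd2 (chromosome 6, 83305691 to 83325908) had 882 and 1235 counts, 19.8 and 23.1 CPM, a log2 ratio of 0.23 (95% interval 0.10 to 0.35). Mthfd1l (chromosome 10, 3973118 to 4167081) had 842 and 1828 counts, 18.9 and 34.3 CPM. Its log2 ratio of 0.86 (95% interval 0.74 to 0.98), or 1.81-fold, was the highest of the 10 and stood above 94.7% of the genes with at least 200 counts. All 3 transcripts were higher with TNF-α beyond counting error, and the ratio of Mthfd1l exceeded that of Mthfd2 by 0.63 (95% interval 0.46 to 0.80).

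**Figure D2:**
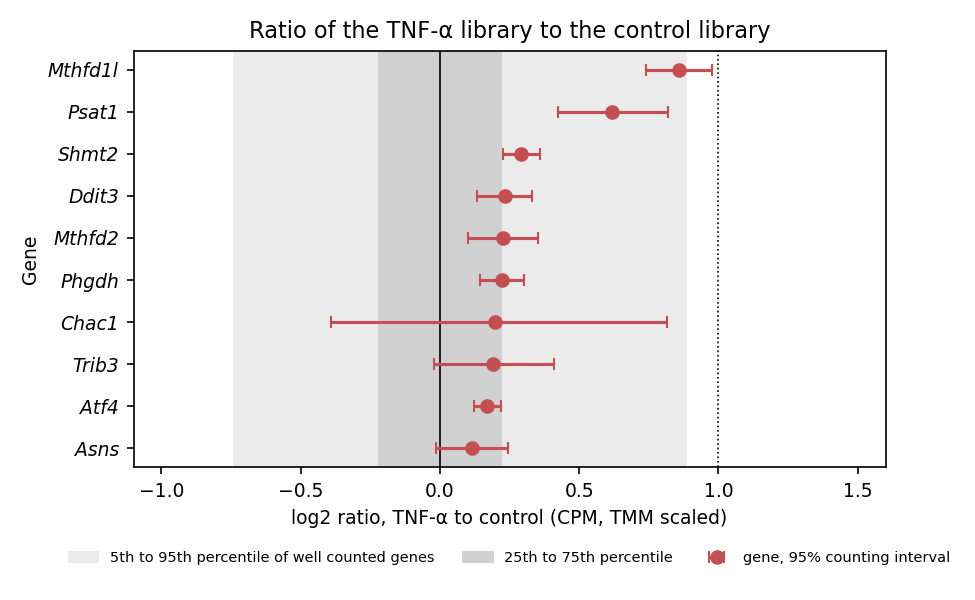
Log2 ratio of the TNF-α library to the control library for the 10 genes (points) with 95% intervals for counting error (bars). Grey bands span the 25th to 75th and the 5th to 95th percentiles of the 13609 genes with at least 200 counts, and the dotted line marks 2-fold. Mthfd1l (0.86) and Psat1 (0.62) lie to the right of the other 8 genes, and the intervals of Asns, Trib3 and Chac1 include 0.

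SHMT2, MTHFD2 and MTHFD1L each have a counterpart that works in the cytosol or an isozyme. Shmt1 and Mthfd1 were nearer to the control level than Shmt2 and Mthfd1l, while Mthfd2l lay slightly below the control. Shmt1, the cytosolic serine hydroxymethyltransferase, had 1255 and 1540 counts and a log2 ratio of 0.04 (95% interval -0.07 to 0.14). The ratio of Shmt2 exceeded that of Shmt1 by 0.26 (95% interval 0.13 to 0.38). Mthfd1, the trifunctional cytosolic enzyme, was the most abundant of the serine and one-carbon enzymes plotted, at 56.4 and 59.0 RPKM, and had a log2 ratio of 0.06 (95% interval 0.02 to 0.11). Mthfd1l exceeded Mthfd1 by 0.79 in log2 ratio (95% interval 0.67 to 0.92). Mthfd2l, the isozyme of Mthfd2, had 717 and 773 counts and a log2 ratio of -0.15 (95% interval -0.30 to -0.003). On halved counts this interval was -0.36 to 0.06 and included 0. The ratio of Mthfd2 exceeded that of Mthfd2l by 0.38 (95% interval 0.18 to 0.57). In the folate-oxidizing pair it was the cytosolic gene that stood further from the control level. Aldh1l1, the cytosolic 10-formyltetrahydrofolate dehydrogenase, had 470 and 1485 counts and a log2 ratio of 1.40 (95% interval 1.25 to 1.55). Its mitochondrial counterpart Aldh1l2, named after its values were seen, had 3340 and 3928 counts and a log2 ratio of -0.03 (95% interval -0.09 to 0.04). In level per length Aldh1l2 was 4.28 times Aldh1l1 in the control library and 1.59 times with TNF-α.

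**Figure D3:**
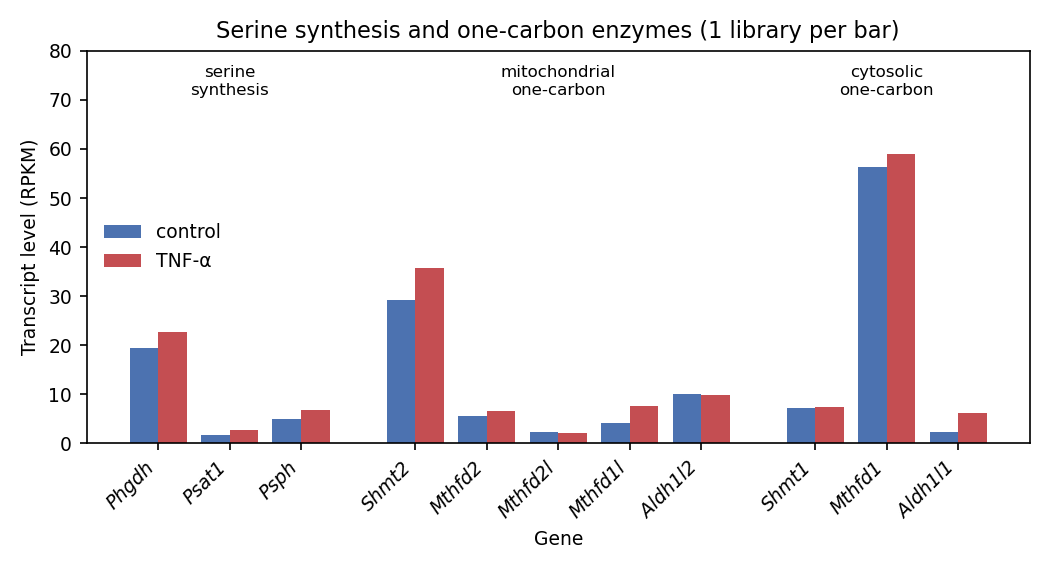
Transcript level (RPKM, linear axis from 0) of serine synthesis enzymes and of mitochondrial and cytosolic one-carbon enzymes, with 1 bar per library. Shmt2, Mthfd1l, Psat1 and Aldh1l1 are higher with TNF-α, while Shmt1, Mthfd1 and Aldh1l2 stand at nearly equal bars.

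The other serine, glycine and folate genes did not share one direction. Of 31 listed, 16 were higher and 15 lower with TNF-α, and the median log2 ratio was 0.01, which turned to -0.02 after a correction for GC content and length. Aldh1l1 was more than 2-fold higher, and Folr1 and Gldc were more than 2-fold lower. Folr1, a folate receptor, had 595 counts in the control and 195 with TNF-α, a log2 ratio of -1.86 (95% interval -2.11 to -1.63). Gldc, the glycine decarboxylase, had 20 and 6 counts and is named after its values were seen. Tyms, which makes thymidylate with a folate-borne carbon, had 708 and 1279 counts and a log2 ratio of 0.59 (95% interval 0.46 to 0.73). Amt, a glycine cleavage gene, had a log2 ratio of -0.39 (95% interval -0.60 to -0.19). Purine synthesis, which consumes formate carbon, had 6 of 11 genes higher and a median of 0.13, with Paics at 0.37 and Gmps at 0.30 highest. Impdh1, at -0.73 with 2442 and 1758 counts, and Prps2, at -0.34, were lowest.

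Of the 15 genes of the eIF2α kinases and their regulators, 10 were higher, none passed 1.5-fold in either direction, and the median log2 ratio was 0.11. Eif2ak2, the kinase PKR that senses double-stranded RNA and is itself interferon-inducible, was highest, with 5307 and 9487 counts and a log2 ratio of 0.58 (95% interval 0.53 to 0.63). Eif2ak4, the amino acid sensor GCN2, had a log2 ratio of 0.33 (95% interval 0.24 to 0.42). Eif2ak1 (HRI, the heme sensor) and Eif2ak3 (PERK, the ER sensor) were at 0.19 and 0.15. Ppp1r15a, which encodes GADD34, the ATF4-driven phosphatase subunit that resets eIF2α, had 10208 and 12405 counts and a log2 ratio of 0.02 (95% interval -0.02 to 0.06). The lowest were Impact, an inhibitor of GCN2, at -0.26 and Eif2b1, a subunit of the eIF2 exchange factor, at -0.17. These are transcript amounts and do not measure phosphorylation.

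The bZIP factors that pair with ATF4 or act beside it were split, with 5 of 10 higher and a median log2 ratio of -0.01, which was -0.06 with at least 1 CPM in a library and turned to 0.06 after a correction for GC content and length. Atf5, itself an ATF4 target, had a log2 ratio of 0.42 (95% interval 0.29 to 0.54) and Cebpd was at 0.26. Jdp2 had 5438 counts in the control and 3863 with TNF-α, a log2 ratio of -0.75 (95% interval -0.81 to -0.69). Atf3, a stress-induced repressor, had 1388 and 1143 counts and a log2 ratio of -0.54 (95% interval -0.65 to -0.43). Batf3, with 4 and 14 counts, was the single gene of the list past 2-fold and is named after its values were seen.

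Established ATF4 targets outside the 10 genes were split evenly, with 13 of 26 higher and 13 lower and a median log2 ratio of 0.03, which was 0.10 with at least 1 CPM in a library or with counts divided by 2. More than 2-fold higher was Bcat1, a branched-chain aminotransferase, with 39 and 205 counts and a log2 ratio of 2.08 (95% interval 1.63 to 2.67). More than 2-fold lower were Cbs, which joins serine to homocysteine, with 529 and 267 counts (log2 ratio -1.24, 95% interval -1.46 to -1.03), and the stress cytokine gene Gdf15, with 70 and 28 counts, named after its values were seen. Slc1a4, a transporter of serine and alanine, was at 0.87 (95% interval 0.68 to 1.07). Also more than 1.5-fold higher were Vldlr at 0.87, the cystine transporter Slc7a11 at 0.76 and Cth at 0.75, named after their values were seen. Stc2, a secreted glycoprotein gene, had 22007 counts in the control and 15620 with TNF-α, a log2 ratio of -0.75 (95% interval -0.78 to -0.72). Targets thus lay on both sides of the control within the same pathway, as with Cth and Cbs, the neighbouring enzymes that convert homocysteine to cysteine. Of the 20 cytosolic aminoacyl-tRNA synthetase genes, many of which ATF4 is known to drive, 16 were higher, with a median of 0.08. Kars was highest at 0.60 (95% interval 0.56 to 0.65) and Rars next at 0.27, while Sars at -0.03 and Wars at -0.01 were lowest.

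**Figure D4:**
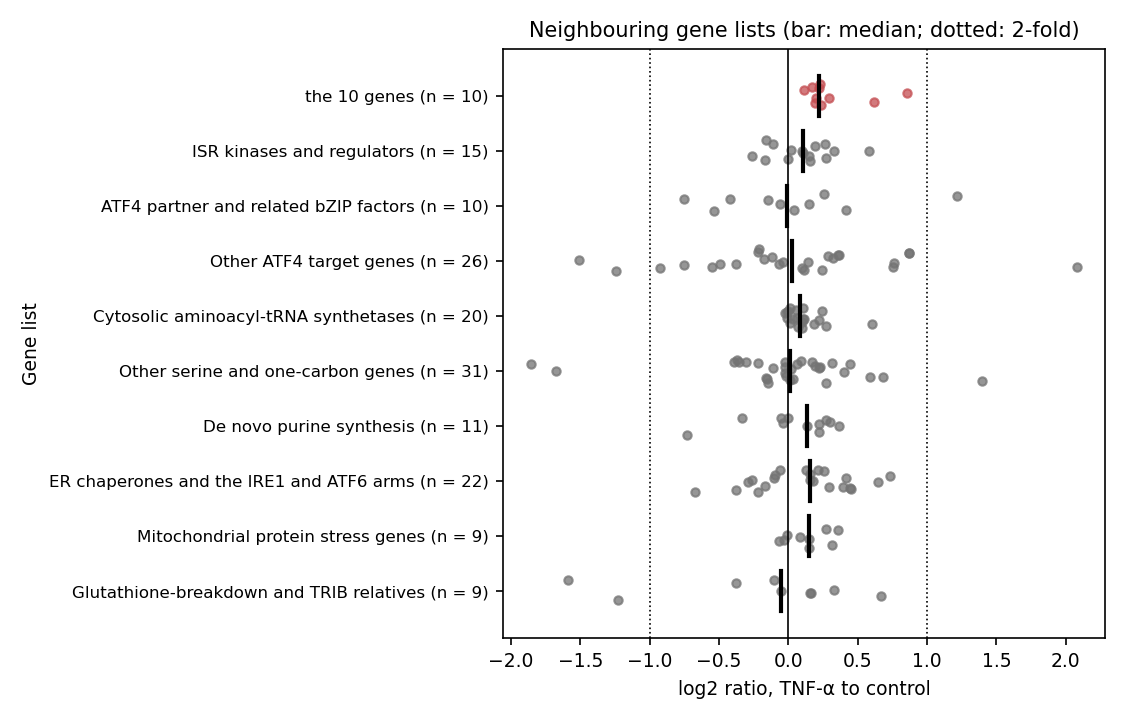
Log2 ratio of the TNF-α library to the control library for the 10 genes and for 9 neighbouring gene lists, with 1 point per gene, a bar at each median and dotted lines at 2-fold. The 10 genes all lie above 0 with a median of 0.22. The lists of ATF4 targets and of serine and one-carbon genes spread to both sides with medians of 0.03 and 0.01. Nearer to the 10 genes were the medians of the ER, mitochondrial stress and purine synthesis lists, at 0.16, 0.15 and 0.13.

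ER folding stress and mitochondrial stress are settings in which ATF4 is often studied. Of 22 ER chaperone genes and genes of the IRE1 and ATF6 arms, 13 were higher, none passed 2-fold, and the median was 0.16. Sdf2l1 (165 and 330 counts) and Ero1l, an ER oxidase that also responds to hypoxia (1082 and 2026 counts), were highest at 0.73 and 0.64. Abundant chaperone genes also lay above the control beyond counting error, among them Hspa5, which encodes the ER chaperone BiP, at 0.44, Pdia6 at 0.45, Manf at 0.42, Pdia4 at 0.39 and Hsp90b1 at 0.30, named after their values were seen. The log2 ratio of the summed CPM was 0.26 for this list and 0.26 for the 10 genes. Such sums are weighted to abundant genes. In the control library Hsp90b1 had 2779 of the 8267 CPM of this list, and Atf4 had 142 of the 363 CPM of the 10 genes. Herpud1, an ER degradation gene, was at -0.38 and Ero1lb at -0.67. Lower beyond counting error were also Atf6 at -0.29, Syvn1 at -0.26, Sel1l at -0.22, Ern1 at -0.17 and Xbp1 at -0.09. These genes were named after their values were seen, and in all 9 of the 22 genes were lower. Of 9 genes of mitochondrial protein quality, 6 were higher with a median of 0.15, from Dnaja3 at -0.06 and Lonp1 at -0.03 to Yme1l1 at 0.31 and Hspe1 at 0.36.

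Relatives of Chac1, Trib3 and Asns gave no common direction, with 4 of 9 higher. Ggct, the cyclotransferase that acts after gamma-glutamyl groups are released from glutathione, had 4737 counts in the control and 1881 with TNF-α, a log2 ratio of -1.59 (95% interval -1.67 to -1.51). Ggt1, which cleaves glutathione outside the cell, had 288 and 146 counts and a log2 ratio of -1.23 (95% interval -1.54 to -0.95), whereas Ggt6 was at 0.67 and Asnsd1 at 0.33. Chac1 and its constitutive relative Chac2 differed in log2 ratio by 0.25 (95% interval -0.34 to 0.84), which the few Chac1 counts could not resolve. The ratio of Trib3 exceeded that of Trib1 by 0.57 (95% interval 0.30 to 0.84) and that of Trib2 by 0.03 (95% interval -0.19 to 0.26).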

How the data were processed

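Bulk RNA-seq libraries from 1 control and 1 TNF-α culture were compared. The authors deposited read counts per gene, not normalized, with exon coordinates and lengths. The labels name GRCm38 (mm10), while the aligner, counting tool and strand setting are not given in the sources used here. Of 47139 gene names shared with GENCODE M21, 91.0% had the same extent. More control genes had 2 counts (2172) than 1 count (618), as when both ends of read pairs are counted. Intervals of single genes were therefore also computed on halved counts. Unless halved counts are named, the intervals given are on the counts as deposited. Those for a difference of 2 log2 ratios were not computed on halved counts.

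Library sizes were scaled by TMM (edgeR 4.0.16, R 4.3.3), with a size of 1.20 for TNF-α relative to the control. Log2 CPM ratios used a prior count of 2, genes with at least 10 summed counts, and 2-fold as threshold. No test between conditions is possible, and 95% Clopper-Pearson intervals (scipy 1.17.1) describe counting error. Intervals for a difference of 2 log2 ratios are normal approximations. In the control and TNF-α libraries, 10 counts equal 0.225 and 0.187 CPM. The calculation was run on simulated Poisson counts. These hold no PCR copies, no read pairs counted at both ends and no variation among cultures, so the intervals were not checked for those. Promoter windows came from RefSeq. DESeq2 1.42.0 size factors and lowess (statsmodels 0.14.6, span 0.3) served as alternatives. The genes and lists were chosen with earlier results of these data known. Besides the 10 genes, named genes are the eIF2α kinases, Ppp1r15a, Psph, Shmt1, Mthfd1 and Mthfd2l, and in each list the 2 highest and 2 lowest genes with at least 200 counts. Others are marked as named afterwards, apart from cell type markers, members of pairs compared with the 10 genes and genes that overlap them. Of the 10 names in the list of relatives of Chac1, Trib3 and Asns, 1 was not matched.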

Additional observations from a re-analysis of the deposited data

How the results depend on the processing

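No paired analysis was possible because the control and TNF-α arms hold 1 library each, and none can be left out. Alternatives were scaling by upper quartile, by total counts or by DESeq2 size factors, no filter, at least 1 CPM in a library, prior counts of 0.5 and 5, counts divided by 2, thinning of the TNF-α counts to the control depth, a correction for GC content and length, and a fold threshold of 1.5. With a threshold of 1.5 in place of 2, the number of the 10 genes counted as higher was 2, because the threshold is lower. Across the other alternatives the median of the 10 genes stayed between 0.21 and 0.25, and each gene stayed above 0 and within its counting interval. Mthfd1l ranged from 0.85 to 0.88 and Psat1 from 0.56 to 0.62. Under the GC content and length correction Ddit3 was at 0.14 in place of 0.23 and Asns at 0.07 in place of 0.11. With the same correction Trib3 was at 0.27 in place of 0.19 and Shmt2 at 0.35 in place of 0.29. The median of the mitochondrial stress genes was 0.10 under the GC content and length correction. For this value the cause was not tested. On halved counts the intervals were wider, and those of Asns (-0.07 to 0.30), Trib3 (-0.11 to 0.50) and Chac1 (-0.65 to 1.09) included 0 while those of the other 7 genes did not. Depth limits Chac1 most, with 100 counts over both libraries.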

Other observations

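The letters TGATGNAA or TGNTGCAA, searched on both strands of the RefSeq promoter windows, were chosen after windows had been read. Of all 32851 windows, 6.2% held a match, a share per window and not per gene. By gene, 461 of those with at least 200 counts and a window under the same name held a match and 9149 did not. Well counted genes without such a window were left out. A match occurred in 8 of the 20 other ATF4 targets with a window. Of these 8, Bcat1, Slc1a4, Slc7a11 and Vldlr were higher in the TNF-α library. Pycr1 was at 0.36 (95% interval -0.04 to 0.78). The letters also occurred in Sesn2, Pck2 and Fgf21, whose log2 ratios were -0.22, -0.21 and -0.93. Fgf21 had 8 counts in the control and 4 with TNF-α. Of the 12 aminoacyl-tRNA synthetase genes with a window, 5 held a match (Aars, Gars, Iars, Tars and Yars), and their log2 ratios ran from -0.001 for Iars to 0.11 for Tars. Atf3, Jdp2 and Nupr1, at -0.54, -0.75 and -0.42, held a match as well. None of the 24 other serine and one-carbon genes with a window did. These genes were named after their values were seen.

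Among genes with at least 200 counts and a window, the 461 with a match had a median log2 ratio of 0.003. The 9149 without a match had a median of -0.006. More than 1.5-fold higher were 13.2% of those with a match and 7.7% of those without, and more than 1.5-fold lower were 9.54% and 7.0%. These shares are a description of the 2 libraries, and other features that differ between the windows were not compared.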
